A study of Rattus norvegicus with 9 samples.

Results

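Nuclei of the proximal straight tubule (PST) were examined in single-nucleus ATAC sequencing (snATAC-Seq) of rat kidney, an assay in which a transposase marks open chromatin in single nuclei. They were all the nuclei that carry the label PST in the deposited annotation. Of 53298 nuclei, 9783 (18.4%) carry it. They came from all 9 libraries, from 367 nuclei in the smallest set to 3613 in the largest. The authors named the label from open chromatin at marker genes. PST markers include Slc7a13, an amino acid transporter of the straight segment, Slc22a7, an organic anion transporter, Slc5a8, a sodium-coupled carrier of monocarboxylates, and Lrp2, which encodes the endocytic receptor megalin and is shared with the convoluted segment. Accessibility at these genes was not analysed here, so the label could not be set against its markers.

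The proximal tubule takes back most of the filtered salt, glucose, amino acids and protein. Its convoluted part (PCT) lies in the cortex, and the straight part that follows runs down into the outer medulla, where oxygen is scarce, and secretes organic anions and drugs. Cells of the straight part are known for their sensitivity to ischemic and toxic injury. Injured proximal tubule cells lose transporters and gain injury genes such as Havcr1 and Vcam1, and the authors labelled such nuclei iPT. PCT, PST and iPT nuclei are together called PT nuclei below.

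The kidneys were those of male Sprague-Dawley rats with a labelled age of 6 weeks. Whether this label is the age of the rats or their time in the experiment was not stated. Control rats had sham surgery. DOCA rats had 1 kidney removed and received weekly injections of deoxycorticosterone acetate, a mineralocorticoid, at 50 mg/kg, with salt in the drinking water and vehicle by gavage. Finerenone, Spironolactone and Amiloride rats had the same nephrectomy, DOCA and salt with finerenone at 10 mg/kg/day, spironolactone at 50 mg/kg/day or amiloride at 20 mg/kg/day. The first 2 drugs block the mineralocorticoid receptor and the third blocks the epithelial sodium channel. Control rats thus differed from all other groups in surgery, salt and hormone together. The labels do not otherwise give which of the study's time points each library came from, nor whether a library held 1 rat or several.

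Each group had 1 library from a chromatin-only kit (scATAC) and 1 from a kit that reads RNA as well (Multiome), except Amiloride, which had a single Multiome library. The libraries held 1817 to 15235 nuclei. The Spironolactone Multiome library alone gave 36.9% of all PST nuclei, so that values pooled over nuclei lean on it, and comparisons were made over libraries. The library codes of the Control Multiome and Amiloride libraries share a stem, and so do those of the 2 DOCA libraries and of the 2 Spironolactone libraries. The Control and Amiloride libraries came from different rats, since their treatment differed. Whether either same-group pair came from the same rat was not stated, so p values measure the spread between libraries, which may be partly technical. Libraries of the same kit shared 5 to 244 barcodes per pair, and a shared barcode was labelled PST in both libraries 30 times among the Multiome pairs and 5 times among the scATAC pairs.

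The first question was how large a part of the kidney nuclei PST was in each group. PST took 34.3% (95% interval 32.4 to 36.2) of the nuclei of the Control scATAC library and 17.6% (16.5 to 18.7) of those of the Control Multiome library. In DOCA the shares were 15.9% (14.4 to 17.4) and 10.8% (10.1 to 11.4). The Control libraries lay far apart, and the interval of the Control Multiome library overlapped that of the DOCA scATAC library. In both kits the DOCA share was below the Control share with no overlap of the intervals, which are exact and cover counting error only.

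In Finerenone, PST made up 20.2% (18.4 to 22.1) of scATAC and 25% (23.9 to 26.1) of Multiome nuclei. In Spironolactone the values were 27.5% (25.9 to 29.2) and 23.7% (23.0 to 24.4). All 4 of these libraries stood above the DOCA library of their kit, while against Control they were lower in the scATAC kit and higher in the Multiome kit. The Amiloride library had the smallest share of all, 4.95% (4.49 to 5.44). Ordered by frequency among the 12 labels, PST ranked 1 in the Control and Finerenone Multiome libraries, 3 in the DOCA scATAC library and 2 in the other scATAC libraries and the Spironolactone Multiome library. It ranked 5 in the DOCA Multiome library, where iPT ranked 1, and 6 in the Amiloride library.

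The mean of the Control libraries was 25.9% ± 11.8 (SD, n = 2) and that of the DOCA libraries 13.3% ± 3.61 (SD, n = 2). Finerenone averaged 22.6% ± 3.40 (SD, n = 2) and Spironolactone 25.6% ± 2.70 (SD, n = 2). The log2 odds of a share (the share over its remainder) were fitted with limma for all 12 labels over the 9 libraries, with group and kit as terms and Benjamini-Hochberg adjustment over the labels. Here limma gave all labels a common spread of 0.564 in log2 odds, where that of PST by itself was 0.498. The SE and p values of this fit thus rest on the 12 labels together, whose shares are not independent of each other. Only the Amiloride against Control difference passed the threshold of 0.05 for PST among the 8 comparisons made, with a log2 difference in odds of -2.45 ± 0.72 (SE; adjusted p = 0.0194). In that comparison 8.33% of all labels passed, so PST was the label that did. Amiloride had a single library, so the spread behind this value came from the other groups. It did not pass without either DOCA library (adjusted p = 0.0886) or without either Spironolactone library (adjusted p = 0.0676).

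DOCA and Control differed by -1.15 ± 0.56 (SE; adjusted p = 0.119) in the log2 odds of PST among all nuclei, in a comparison in which 25% of labels passed. The within-kit differences were -1.47 in scATAC and -0.82 in Multiome. The estimate was -1.70 (adjusted p = 0.0116) without the Control Multiome library and -0.59 (adjusted p = 0.521) without the Control scATAC library. Spironolactone against DOCA gave 1.19 ± 0.56 (SE; adjusted p = 0.169), and there 0% of labels passed in limma, with 3 of 12 at an unadjusted p under 0.05, PST among them. PST passed without either Control library (adjusted p = 0.0469). Finerenone against DOCA gave 0.95 ± 0.56 (SE; adjusted p = 0.245; 16.7% of labels passed), which became 1.51 without the scATAC and 0.38 without the Multiome library of Finerenone. Amiloride against DOCA gave -1.31 ± 0.72 (SE; adjusted p = 0.125; 33.3% of labels passed), and it passed without either Control library (adjusted p = 0.0288). These comparisons share their DOCA libraries and so are not independent of each other.

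The drug groups were also set against Control and against each other. For PST among all nuclei, Finerenone against Control gave -0.20 ± 0.56 (SE; adjusted p = 0.791), with 0% of labels past the threshold in limma and 1 of 12 at an unadjusted p under 0.05. Spironolactone against Control gave 0.04 ± 0.56 (SE; adjusted p = 0.955), and Finerenone against Spironolactone gave -0.24 ± 0.56 (SE; adjusted p = 0.805), each with 8.33% of labels past the threshold. All 3 estimates were smaller than their standard errors, which does not show that these groups were alike.

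**Figure D1:**
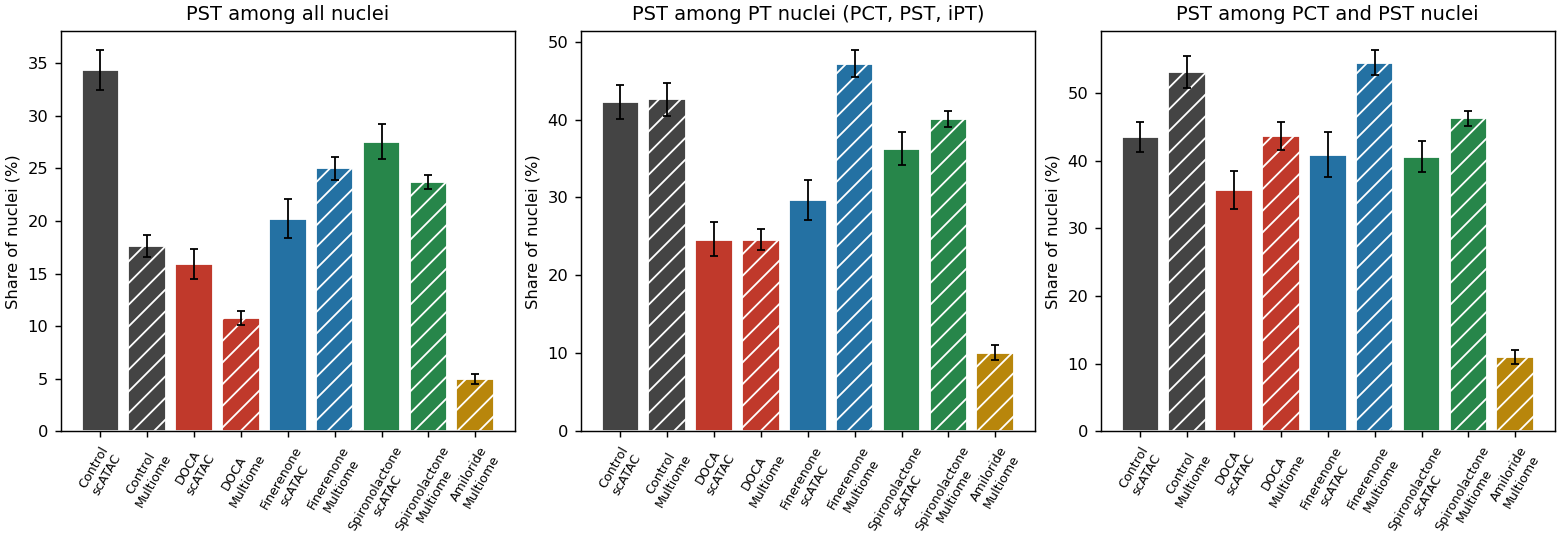
Share of PST nuclei (%) in each of the 9 libraries, among all nuclei (left), among PCT, PST and iPT nuclei (middle) and among PCT and PST nuclei (right). Bars are single libraries, hatched for the Multiome kit, with exact 95% counting intervals. The Control scATAC library stands apart from the Control Multiome library on the left (34.3% and 17.6%) and meets it in the middle (42.2% and 42.6%), and the Amiloride library is lowest in all 3 panels.

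A share of all nuclei moves with every other cell type, and PT nuclei ranged from 41.3% to 81.2% of a library, both ends being Control libraries. PST was therefore also taken as a share of PT nuclei. On this scale both libraries of a group lay close together in Control and DOCA, though not in Finerenone. PST was 42.2% (40.1 to 44.5) and 42.6% (40.5 to 44.7) of PT nuclei in the Control libraries and 24.6% (22.5 to 26.8) and 24.6% (23.3 to 26.0) in the DOCA libraries. Both pairs differed by less than their counting intervals. Control averaged 42.4% ± 0.239 (SD, n = 2) and DOCA 24.6% ± 0.00976 (SD, n = 2). The fitted difference was -1.17 ± 0.43 (SE) in log2 odds (adjusted p = 0.037), a fall that stood at -1.16 within the scATAC kit and -1.19 within the Multiome kit. In this comparison 50% of labels passed, each counted over PT nuclei or over the remaining nuclei.

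The estimate ran from -1.40 to -0.95 when each library was left out in turn, and the call was lost for 6 of the 9. The adjusted p was 0.257 and 0.0721 without the Control scATAC and Multiome library, 0.159 and 0.245 without the DOCA scATAC and Multiome library, and 0.0588 without either Spironolactone library. The Amiloride library alone made up its group, so leaving it out could not change this comparison. With no kit term the estimate was again -1.17 and missed the threshold (adjusted p = 0.0803).

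The Finerenone libraries disagreed with each other, with PST at 29.6% (27.1 to 32.2) of PT nuclei in scATAC and 47.1% (45.4 to 48.9) in Multiome. The former was near the DOCA libraries and the latter was the highest of all 9. The Spironolactone libraries held 36.3% (34.2 to 38.4) and 40.0% (39.0 to 41.1), between DOCA and Control in both kits, though the interval of the Multiome library overlapped that of Control. The means were 38.4% ± 12.4 (SD, n = 2) and 38.1% ± 2.68 (SD, n = 2). Against DOCA, Finerenone differed by 0.91 ± 0.43 (SE; adjusted p = 0.153; 25% of labels passed), with 0.37 within scATAC and 1.45 within Multiome, and with 1.41 or 0.41 when its scATAC or its Multiome library was left out. Spironolactone differed from DOCA by 0.92 ± 0.43 (SE; adjusted p = 0.163; 0% of labels passed in limma and 3 of 12 had an unadjusted p under 0.05), with 0.80 and 1.03 within the kits. Neither passed the threshold, and both passed when limma was run with a trend and robust spread (adjusted p = 0.0313 and 0.0297).

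Among PT nuclei, Finerenone against Control gave -0.27 ± 0.43 (SE; adjusted p = 0.729), with 0% of labels past the threshold in limma and 1 of 12 at an unadjusted p under 0.05. Within kits it pointed in opposite directions, -0.80 in scATAC and 0.27 in Multiome. Spironolactone against Control gave -0.26 ± 0.43 (SE; adjusted p = 0.780), with -0.36 and -0.15 within kits. This estimate ran from -0.47 to -0.05 with a library left out. Finerenone against Spironolactone gave -0.01 ± 0.43 (SE; adjusted p = 0.985), with -0.43 in scATAC and 0.42 in Multiome. In each of the last 2 comparisons 8.33% of labels passed.

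In Amiloride, PST was 10.1% (9.19 to 11.1) of PT nuclei. This was lower than in Control by a log2 odds of -2.88 ± 0.55 (SE; adjusted p = 0.00148; 25% of labels passed) and lower than in DOCA by -1.70 ± 0.55 (SE; adjusted p = 0.0186; 58.3% of labels passed). The difference from Control passed with each other library left out in turn. The difference from DOCA was lost on leaving out either DOCA library, with an adjusted p of 0.0999 for the scATAC and 0.0739 for the Multiome library. With a single Amiloride library, the group and that library cannot be told apart, and the fit assumed that it varied like the other libraries.

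PST was then set against each of the other PT labels alone. Per PCT nucleus there were 0.770 and 1.13 PST nuclei in the Control libraries (scATAC first), and 0.553 and 0.772 in DOCA. Finerenone had 0.691 and 1.19, and Spironolactone 0.682 and 0.861. Each Multiome library was above the scATAC library of its group, and within each kit DOCA was lowest of these 4 groups. The Amiloride library had 0.123 PST nuclei per PCT nucleus, 407 against 3312, far below the rest. As a share of PCT and PST nuclei, PST was 43.5% and 53.0% in Control, 35.6% and 43.6% in DOCA, and 10.9% in Amiloride. The test over groups, an exact permutation of the group labels within kits, gave p = 0.025 for PST per PCT nucleus, or 0.15 after adjustment over the 6 measures tested in this way. The smallest p that the 120 distinct regroupings of the 9 libraries allow is 0.00833. Without the Amiloride library the exact permutation p was 0.125, and the 24 regroupings then left allow none below 0.0417.

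The ratio of PST to iPT moved over a wider range. There were 14.8 and 2.16 PST nuclei per iPT nucleus in Control against 0.797 and 0.565 in DOCA. Finerenone had 1.08 and 3.52, Spironolactone 3.42 and 2.98, and Amiloride 1.31. PST nuclei were outnumbered by iPT nuclei in the DOCA libraries alone. The Control scATAC value rests on 57 iPT nuclei, and the 2 Control libraries differed more from each other than those of any other group. This ratio is given as a description, since the shares tested above already hold the counts.

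The labels say nothing of how close nuclei are to one another, and the UMAP adds this: it is a plane on which the authors placed nuclei with like accessibility near each other after batch correction. The study's methods name more merged data sets than the libraries here, so other libraries may have entered that correction and the plane. Labels and UMAP come from the same data, so the position of PST next to another label is a description, and only differences between libraries were tested. PST formed 1 body with 9551 nuclei (97.6%), found by linking nuclei within 0.5 UMAP units. Its centre was 5.11 UMAP units from that of iPT and 5.51 from that of PCT. On the map the body had a dense foot away from both labels, an arm that rose along 1 side toward the iPT nuclei, and a thin bridge with a knot of nuclei toward PCT.

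**Figure D2:**
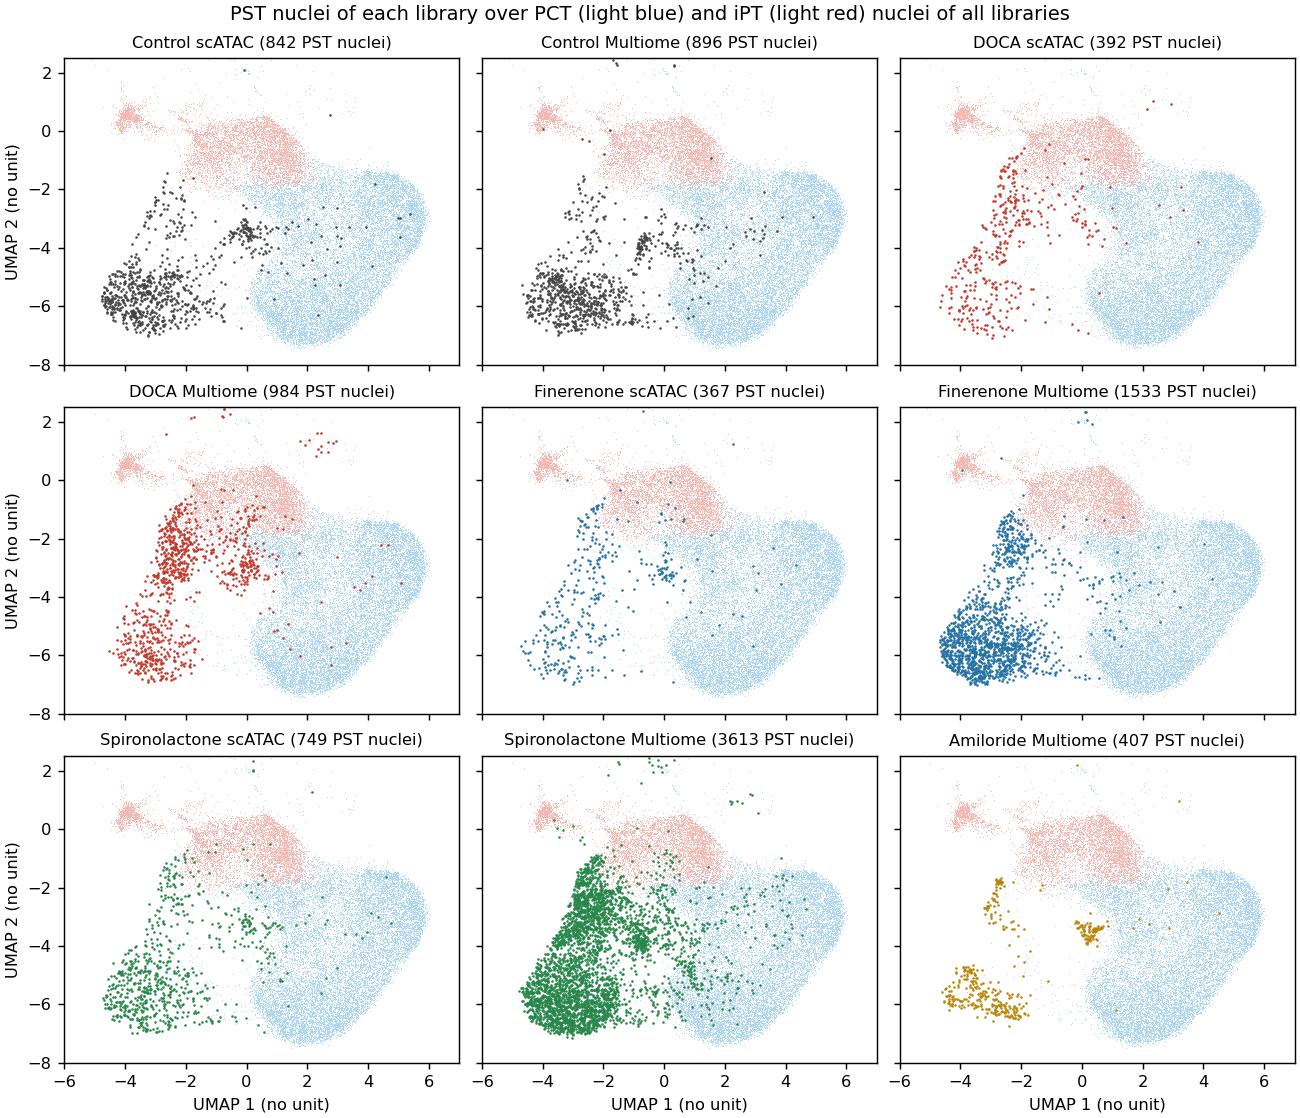
PST nuclei of each of the 9 libraries on the UMAP (both axes without unit), coloured by group, over the PCT nuclei (light blue) and iPT nuclei (light red) of all libraries. In the DOCA Multiome library the arm below the iPT nuclei is dense and 35.9% of PST nuclei are nearest to the iPT centre, against 4.91% in the Control Multiome library, whose nuclei fill the foot. The 144 PST nuclei outside the plotted window are not shown.

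Among the 15 nearest nuclei of a PST nucleus, 88.2% on average were PST, 5.65% PCT and 2.16% iPT. The next most frequent were the loop of Henle (LOH), the segment that follows PST in the nephron, with 2.05%, endothelium with 0.672% and macrophages with 0.343%. In all, 65.1% of PST nuclei had only PST neighbours, 14.9% had at least 1 PCT neighbour, 6.62% had at least 1 iPT neighbour, and 203 nuclei (2.08%) had both.

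Contact with iPT was compared between libraries first. Of the PST nuclei, 2.26% (1.36 to 3.50) in the Control scATAC library and 3.35% (2.27 to 4.75) in the Control Multiome library had an iPT nucleus among their 15 nearest. In DOCA these were 10.7% (7.83 to 14.2) and 17.8% (15.4 to 20.3), which is 4.75 and 5.31 times the Control value of the same kit. The DOCA libraries were the highest of their kits, and their intervals did not overlap those of Control. Finerenone had 9.54% (6.73 to 13.0) in scATAC, which overlapped DOCA, and 4.83% (3.81 to 6.02) in Multiome, which overlapped Control. Spironolactone had 6.54% (4.88 to 8.56) and 5.87% (5.12 to 6.68), both above Control without overlap, and the scATAC value overlapped that of DOCA. The Amiloride library had 2.95% (1.53 to 5.09), which overlapped both Control libraries.

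On average 2.80% ± 0.772 (SD, n = 2) of PST nuclei touched iPT in Control, and 14.2% ± 5.00 (SD, n = 2) did in DOCA. The averages for Finerenone and Spironolactone were 7.18% ± 3.33 (SD, n = 2) and 6.20% ± 0.477 (SD, n = 2). Over the 5 groups the exact permutation p within kits was 0.075 and the adjusted p 0.225, so the difference did not pass. The DOCA libraries also held the most iPT nuclei of their kits, 492 and 1742. With neighbours taken from other libraries only, contact with iPT was 11.0% and 16.8% in DOCA against 2.02% and 3.46% in Control. With neighbours taken only from libraries of other groups, a setting chosen after the data were seen, the values were 11.2% and 17.2% against 2.02% and 2.79%, and the exact permutation p was 0.0333 (adjusted p = 0.1). DOCA was the highest in both kits for 15 and 50 neighbours. With 5 neighbours the highest scATAC library was Finerenone with 7.63%.

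DOCA was also the highest of each kit in PCT nuclei. An iPT neighbour was present for 2.29% and 2.27% of PCT nuclei in Control, 14.1% and 17.7% in DOCA, 12.6% and 7.09% with finerenone, 6.65% and 7.93% with spironolactone, and 2.90% with amiloride. Contact with iPT was thus not particular to PST, and whether the 2 labels differed in it was not tested.

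**Figure D3:**
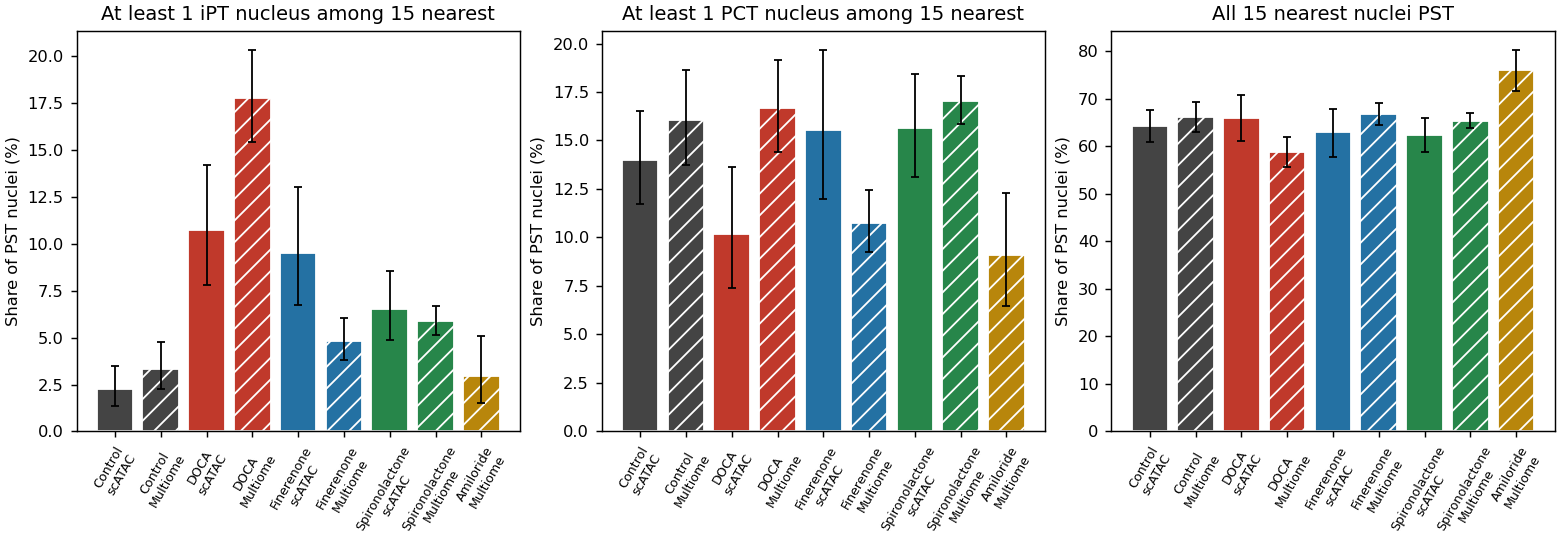
Share of PST nuclei (%) in each library with at least 1 iPT nucleus (left) or at least 1 PCT nucleus (middle) among the 15 nearest nuclei, and with only PST nuclei among them (right). Bars are single libraries, hatched for the Multiome kit, with exact 95% counting intervals. The DOCA bars on the left reach 10.7% and 17.8% against 2.26% and 3.35% in Control, while in the middle panel the DOCA bars stand at 10.2% and 16.7% against 14.0% and 16.1%.

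Contact with PCT was measured in both directions. A PCT neighbour was present for 14.0% and 16.1% of PST nuclei in Control, 10.2% and 16.7% in DOCA, 15.5% and 10.8% with finerenone, 15.6% and 17.0% with spironolactone, and 9.09% with amiloride (exact permutation p = 0.492, adjusted p = 0.525). The Amiloride library had the smallest share of PST nuclei beside PCT, with 3312 PCT nuclei. Seen from PCT, a PST neighbour was present for 25.2% and 18.7% of PCT nuclei in Control and 33.3% and 34.0% in DOCA, the lowest and the highest of each kit, and for 24.1% to 33.1% in the other libraries. This second direction was not tested. The share of PST nuclei with PST neighbours only was 64.4% and 66.2% in Control, 66.1% and 58.8% in DOCA, 62.9% and 66.9% with finerenone, 62.5% and 65.4% with spironolactone, and 76.2% with amiloride. The DOCA Multiome library was lowest and the Amiloride library highest, and the difference over groups did not pass (exact permutation p = 0.225, adjusted p = 0.338).

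Position along the body was described further by the nearest label centre and by the distance to the iPT centre, both chosen after the data were seen and given without a test. Over all libraries 14.8% of PST nuclei (1447) lay nearer to the iPT centre than to the PST or PCT centre. The share was 4.63% and 4.91% in Control, 22.4% and 35.9% in DOCA, 26.7% and 11.0% with finerenone, 14.7% and 14.0% with spironolactone, and 10.3% with amiloride. Every DOCA-treated library, with or without a drug, was above both Control libraries. The median distance of PST nuclei from the iPT centre was 5.82 and 5.80 UMAP units in Control and 4.17 and 3.33 in DOCA. It was 4.24 and 5.87 in Finerenone, 5.48 and 4.97 in Spironolactone and 5.74 in Amiloride. The Finerenone scATAC library was as near to iPT as the DOCA library of its kit, and the Finerenone Multiome library was as far as Control.

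**Figure D4:**
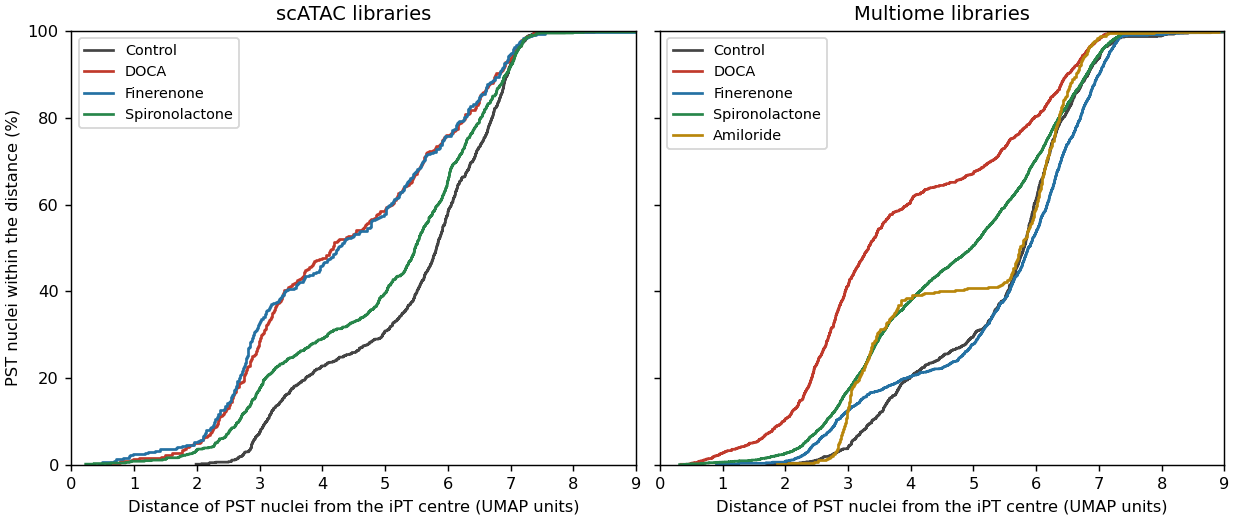
Cumulative share of PST nuclei (%) within a given distance of the iPT centre (UMAP units), 1 line per library, for the scATAC libraries (left) and Multiome libraries (right). On the left the DOCA and Finerenone lines run together, with medians of 4.17 and 4.24, and on the right the DOCA line stands alone with a median of 3.33 while Control and Finerenone lie at 5.80 and 5.87. The Amiloride line has a flat stretch where few of its nuclei lie.

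Toward PCT the pattern was a different one. The share of PST nuclei nearest to the PCT centre was 11.0% and 9.38% in Control, 5.10% and 4.47% in DOCA, 8.99% and 3.33% with finerenone, 9.48% and 7.64% with spironolactone, and 17.9% with amiloride. Control was above DOCA in both kits. The median distance from the PCT centre, also given without a test, did not follow this share. It was shorter in DOCA (5.70 and 5.50 UMAP units) than in Control (6.08 and 5.77). In Finerenone it was 5.65 and 6.03, in Spironolactone 5.87 and 5.65, and in Amiloride 5.95. Amiloride, the library with the fewest PST nuclei per PCT nucleus, had the largest share on this side, yet the smallest share in direct contact with PCT. Its nuclei near PCT sat in a compact knot, as the map of the PST nuclei on the UMAP shows.

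The centre of the PST nuclei of each library was set against that of the PST nuclei of all other libraries. In the largest body the shift was 0.554 and 0.571 UMAP units in Control, 1.23 and 1.99 in DOCA, 1.13 and 0.743 with finerenone, 0.142 and 0.494 with spironolactone, and 0.272 with amiloride. The DOCA libraries were the most displaced of their kits. The exact permutation p was 0.125 (adjusted p = 0.25). The Spironolactone Multiome library, which gave the most PST nuclei, weighs on the centre against which the others are measured. The spread, the median distance of a library's PST nuclei from their own centre, was 1.37 and 1.27 in Control, 1.89 and 2.04 in DOCA, 2.18 and 1.28 with finerenone, 1.66 and 1.88 with spironolactone, and 1.44 with amiloride (exact permutation p = 0.525, adjusted p = 0.525). None of the 6 measures tested by permutation passed after adjustment, and PST per PCT nucleus was the only 1 with an unadjusted p under 0.05 when permuted within kits over all 9 libraries with 15 neighbours from any library. The statistic permuted was the F of group after kit. With a library left out, it ran from 2.51 to 15.2 for contact with iPT, against 4.99 with all 9. It ran from 1.21 to 20.1 for the shift (4.34 with all 9) and from 6.39 to 304 for PST per PCT nucleus (105 with all 9). The loss of a library thus moved each of these in both directions. Without the Amiloride library the exact permutation p of the shift was 0.0417. When group labels were permuted over all libraries without regard to kit, the exact permutation p was 0.0624 for PST per PCT nucleus and 0.0392 for contact with iPT, and again none passed after adjustment.

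Whether libraries of the same group lay together within the PST body was asked across kits. For the PST nuclei of each scATAC library, the 15 nearest PST nuclei of the 4 Multiome libraries of the same groups were found, and their share from each library was divided by that library's share of those PST nuclei. Control scATAC nuclei had Control Multiome neighbours above this share (log2 ratio 0.37), and DOCA had DOCA neighbours above it (0.33). DOCA scATAC nuclei were poor in Control neighbours (-0.47). Finerenone and Spironolactone nuclei were not enriched for their own group (-0.13 and -0.09), and the highest ratio in this direction was that of Finerenone scATAC nuclei for DOCA Multiome neighbours (0.45). The mean over the 4 groups was 0.12 (exact permutation of the 24 matchings, 1-sided, p = 0.25, where the smallest possible is 0.0417). It was 0.01 without Control, 0.05 without DOCA and 0.22 without Finerenone, with exact permutation p values of 0.167 to 0.667 over the groups left out, where none below 0.167 is possible. In the other direction, from Multiome nuclei to scATAC neighbours, the observed share was 1.46 times the expected for DOCA with DOCA, the highest, and 1.36 times for DOCA with Finerenone. It was 1.18 times for Control, 0.911 for Finerenone and 1.00 for Spironolactone with their own groups.

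**Figure D5:**
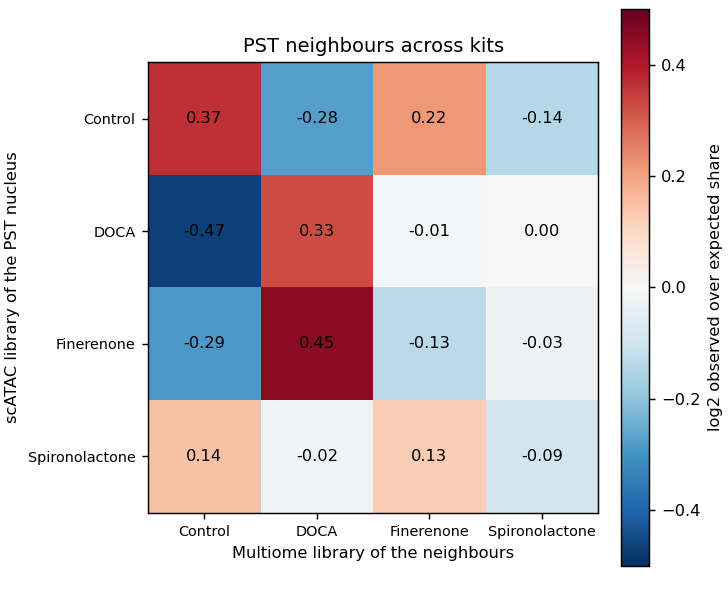
Enrichment of PST neighbours across kits, as the log2 of the observed over the expected share (colour and number), for scATAC libraries (rows) and Multiome libraries (columns). On the diagonal Control (0.37) and DOCA (0.33) are above 0 and Finerenone (-0.13) and Spironolactone (-0.09) below it, and the Finerenone row peaks in the DOCA column (0.45).

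Within the PST body, each library was also somewhat closer to itself than its size alone would give. The share of a nucleus's 15 nearest PST nuclei that came from its own library was 1.12 to 1.77 times that library's share of all PST nuclei in 8 libraries. In the Amiloride library it was 3.35 times, with 14.0% of neighbours from a library that gave 4.16% of PST nuclei. The other neighbours of the Amiloride nuclei came from the other 8 libraries.

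A minority of PST nuclei lay outside PST territory. For 998 nuclei (10.2%) at least 8 of the 15 nearest nuclei carried another label, and the commonest of these other labels was PCT for 520, iPT for 214 and LOH for 113. By library this share ran from 4.42% in Amiloride to 16.7% in the DOCA Multiome library. For 307 nuclei (3.14%) no neighbour was PST. Outside the largest body lay 232 nuclei (2.37%), of which 134 formed 7 small islands beside LOH (35 nuclei), macrophages (28), endothelium (22), fibroblasts (14 and 13), principal cells (12) and distal convoluted tubule (10). Each island held nuclei of 5 to 8 libraries. No doublet caller was applied here, and whether nuclei captured in pairs are among them was not tested.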

How the data were processed

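The authors prepared nuclei from whole kidneys and used Cell Ranger ATAC 1.1.0, the build rn6 and Signac 1.3.0, per the submitters' processing notes. They filtered nuclei on fragments and reads in peaks, signal at start sites and the nucleosome pattern, corrected batches with Harmony, clustered, and named labels. The deposited metadata hold a library code, treatment and label per nucleus, and the deposited UMAP coordinates are a score without unit, joined by barcode. The kit of each code within its group was read from barcodes shared between libraries (at most 1 between kits), anchored on the single Amiloride library. Peak counts were not analysed here.

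PST nuclei were counted per library in Python 3.11.15 with Clopper-Pearson intervals (scipy 1.17.1). The limma model (limma 3.58.1 in R 4.3.3) took log2 odds with 0.5 added to both counts. Neighbours were found with scikit-learn 1.9.0 among nuclei of all libraries. Permutations were exact, over 2880 assignments within kits for all 9 libraries, 22680 without regard to kit, and 24 matchings across kits. With a library left out there were 576 or 720 assignments. Islands linked nuclei within 0.5 UMAP units with at least 10 nuclei. By rule the text names PST, PCT, iPT and the 3 labels most often beside PST. Labels beside islands were named after their values were seen. Members, measures and tests were chosen with earlier results of these data known. The scripts' tests were tried on simulated data. Alternatives covered the kit term, the transform, thinning to 1817 nuclei per library, the number and source of neighbours, and each library left out.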

Additional observations from a re-analysis of the deposited data

How the results depend on the processing

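Of 326 recomputed values, 293 kept their side of the threshold and any sign, 8 newly passed it, 16 no longer passed and 9 changed sign. Sign was judged for limma differences and for the matching across kits, and the other permutation tests have none. Some values had no room to change. Comparisons between other groups were the same with the Amiloride library left out, and the matching could not pass with a group left out. The 293 is thus not a measure of how firm the results are. Among all nuclei, the Amiloride against Control difference did not pass with no kit term (-2.68, adjusted p = 0.0981) or with an arcsine transform of the share (-0.27, adjusted p = 0.0831), and it ran from -3.15 to -2.03 with libraries left out. Spironolactone against DOCA passed when only these groups were fitted (1.19, adjusted p = 0.0395), with 1.06 to 1.31 on leaving out libraries. With a library left out, DOCA against Control ran from -1.70 to -0.59, Amiloride against DOCA from -1.46 to -1.16, Finerenone against DOCA from 0.38 to 1.51, Finerenone against Control from -0.77 to 0.37, Spironolactone against Control from -0.51 to 0.60 and Finerenone against Spironolactone from -0.81 to 0.33. Among PT nuclei with no kit term, neither DOCA against Control (-1.17, adjusted p = 0.0803) nor Amiloride against DOCA (-1.54, adjusted p = 0.0663) passed. With libraries left out these ran from -1.40 to -0.95 and from -1.98 to -1.54. With a trend and robust spread, Finerenone (0.91) and Spironolactone (0.92) against DOCA passed, and these ran from 0.41 to 1.41 and from 0.69 to 1.14 with libraries left out. Finerenone against Spironolactone was 0.00052 on the arcsine scale and -0.51 to 0.49 with libraries left out, and Finerenone against Control -0.77 to 0.23. Over all 12 labels, 0 to 9 passed in a comparison under the alternatives, against 0 to 7 in the model reported. The causes were not tested beyond the loss of a library. Replicate numbers could not pair the groups, since no 2 groups share more than 1 in the titles. Kit paired the libraries instead, as a term of the model and in the within-kit values. The depth of reads per nucleus is unknown here, and PST counts of 367 to 3613 set the width of the intervals.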

Other observations

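The boundary of PST with the loop of Henle, the segment that follows it, was also crossed from the other side. Nuclei with at least 8 PST nuclei among their 15 nearest made up 3.96% and 0.835% of LOH nuclei in the Control libraries (scATAC first), 0% and 0.943% in DOCA, 3.61% with finerenone in Multiome, 4.31% and 2.87% with spironolactone, and 2.58% with amiloride. The Finerenone scATAC share was 1.90%. In the scATAC libraries these were 0 to 5 nuclei each, too few to order the libraries. The 0 of 214 in DOCA allows a share of up to 1.40%, taken as 3 counts over the total and not as an exact interval. At least 1 PST neighbour was found for 21.8% and 6.21% of LOH nuclei in Control, 12.6% and 8.65% in DOCA, 13.9% to 17.4% with finerenone or spironolactone, and 23.5% with amiloride. The scATAC values rest on 101 to 214 LOH nuclei per library.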
